A study of Mus musculus with 12 samples.

Results

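The genes described here are 10 CC chemokines known for recruiting myeloid cells: Ccl2, Ccl3, Ccl4, Ccl5, Ccl6, Ccl7, Ccl8, Ccl9, Ccl12 and Ccl22. They were chosen by name, and all 10 were among the 25619 genes listed in all 3 deposited tables and among the 19436 genes that passed the filter on low counts. Bulk RNA sequencing gave 12 libraries of total RNA from mouse pancreatic ductal adenocarcinoma (PDAC) tumours grown under the skin. There were 4 groups with 3 libraries each: tumours left untreated, those given an antibody against the interleukin-1 receptor IL-1R1, tumours given an agonistic antibody against CD40, and tumours given both antibodies, called the combination. Dosing was intraperitoneal, 2 times a week, per the labels. The tumour line, the genotype, strain and age of the hosts, the doses and the day of collection were not given in the sources used here. Whether the 3 libraries of each group are 3 mice is not stated either, so the p-values reflect sample-to-sample spread that may be technical.

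CC chemokines are small secreted proteins, named for a pair of adjacent cysteines, that guide leukocytes through G protein-coupled receptors. Ccl2, Ccl7 and the mouse gene Ccl12 encode ligands of CCR2, the receptor that brings inflammatory monocytes out of the bone marrow and into tumours. Ccl3, Ccl5, Ccl6 and Ccl9 encode ligands of CCR1, found on monocytes and macrophages, and Ccl4 is a close relative of Ccl3 that also attracts leukocytes. Ccl22, made by dendritic cells and macrophages, encodes a ligand of CCR4, a receptor of regulatory T cells. In PDAC, macrophages recruited by such signals are a large part of the immune infiltrate, and CD40 stimulation is known to act on macrophages and dendritic cells.

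In the files' mm39 coordinates, 9 of the 10 genes lay on chromosome 11 in 2 runs. The first run covered 81.2 kb and held Ccl2 (chr11:81926397-81928279), Ccl7 (chr11:81936538-81938351), Ccl12 (chr11:81992671-81994226) and Ccl8 (chr11:82006011-82007625), all on the plus strand. The only other listed gene between them was Ccl11, the eosinophil attractant eotaxin. The second run covered 138.9 kb and held Ccl5 (chr11:83416604-83421344), Ccl9 (chr11:83463745-83469462), Ccl6 (chr11:83478708-83483913) and Ccl3 (chr11:83538670-83540181) on the minus strand and Ccl4 (chr11:83553410-83555509) on the plus strand. Ccl22 lay alone on chromosome 8 (chr8:95472218-95478327, plus strand). A pair of long noncoding genes overlap Ccl6 and Ccl3 on the other strand, E230016K23Rik with at most 12 reads in a library and ENSMUSG00000120024 with at most 16. Whether counting used strand is not given, so some of their reads may have been counted for Ccl6 and Ccl3. Ccl6 had 554 to 5117 reads in a library and Ccl3 had 7 to 498. Genes of both runs are paralogs, and reads shared between close copies may have been split in a way the sources do not describe.

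RefSeq promoter windows of the GRCm38.p6 build, 250 bases before to 50 after a gene's start, were at hand for 6 members: Ccl3, Ccl6, Ccl8, Ccl9, Ccl12 and Ccl22. Because NF-kB and interferon target genes are described beside these chemokines, each window was searched on both strands for the NF-kB consensus and for GAAANNGAA, the core of the interferon-stimulated response element. The NF-kB consensus occurred once, in Ccl9, at bases -35 to -26 from the start and on the strand opposite to the gene. GAAANNGAA occurred once, in Ccl3, at bases -39 to -31 and also on the opposite strand. The windows of Ccl6, Ccl8, Ccl12 and Ccl22 held neither string of letters, which says nothing about the factors. Over all 32851 promoter windows of this length, 8.46% held the NF-kB consensus and 8.56% held GAAANNGAA. The windows with a match are shown with it in capitals, and that of Ccl12, the member with the lowest p-values in most comparisons, is shown for comparison, each 5′ to 3′ on the gene's strand.
Ccl9 (chr11:83578587-83578886, minus strand): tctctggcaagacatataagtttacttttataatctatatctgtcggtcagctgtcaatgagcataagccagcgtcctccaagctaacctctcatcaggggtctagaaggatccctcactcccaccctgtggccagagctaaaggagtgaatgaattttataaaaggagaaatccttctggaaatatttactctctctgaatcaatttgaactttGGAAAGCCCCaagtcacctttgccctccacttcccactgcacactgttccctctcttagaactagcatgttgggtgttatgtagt
Ccl3 (chr11:83649329-83649628, minus strand): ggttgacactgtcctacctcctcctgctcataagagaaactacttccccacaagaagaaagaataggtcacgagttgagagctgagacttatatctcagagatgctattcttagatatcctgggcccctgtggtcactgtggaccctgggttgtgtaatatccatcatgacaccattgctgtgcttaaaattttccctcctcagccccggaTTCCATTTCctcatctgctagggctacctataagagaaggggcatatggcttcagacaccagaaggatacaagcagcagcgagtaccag
Ccl12 (chr11:82101595-82101894, plus strand): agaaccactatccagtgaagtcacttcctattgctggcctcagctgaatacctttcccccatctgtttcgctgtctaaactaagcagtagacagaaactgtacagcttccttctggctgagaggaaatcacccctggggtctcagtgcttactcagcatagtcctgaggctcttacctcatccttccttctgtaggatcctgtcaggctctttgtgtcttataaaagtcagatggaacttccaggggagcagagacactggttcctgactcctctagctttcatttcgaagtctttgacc

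Levels are given in CPM, read counts scaled to a common library total after TMM normalization. Each library held between 27.8 and 53.3 M reads assigned to genes. Levels of different genes are compared only in CPM per kb of the deposited gene length. By that measure, Ccl8 was the most abundant member in every group by its mean, at 44.0 ± 11.0 CPM per kb (SD, n = 3) in untreated tumours, 32.4 ± 16.6 under anti-IL-1R1, 65.9 ± 38.6 under CD40 agonist and 112 ± 9.32 in the combination. In untreated tumours its libraries lay above those of Ccl6 (23.1 ± 3.99) and Ccl12 (21.6 ± 2.71), which overlapped each other. Ccl2 (14.1 ± 0.774), Ccl7 (11.7 ± 4.03), Ccl5 (11.3 ± 7.45) and Ccl9 (8.53 ± 0.966) followed, each overlapping the next. Ccl4 (4.42 ± 2.13), Ccl22 (3.27 ± 0.537) and Ccl3 (1.59 ± 0.494) were the least abundant. In the combination every neighbour in the order overlapped the next. Ccl2 stood second there, at 93.0 ± 61.1 CPM per kb, and Ccl3 last, at 6.60 ± 6.35.

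The sum of the 10 members per kb was 167, 110 and 154 CPM per kb in untreated replicates 1, 2 and 3, and 124, 99.5 and 62.0 under anti-IL-1R1. It was 297, 366 and 100.5 CPM per kb under CD40 agonist, and 482, 337 and 560 in the combination. CD40 agonist replicate 3 thus lay below every untreated library and between anti-IL-1R1 replicates 1 and 2, apart from the other libraries of its own group. Of that sum, Ccl2 took 10.1% ± 1.73 (SD, n = 3) in untreated and 9.26% ± 1.71 in anti-IL-1R1 tumours, and 18.0% ± 5.77 and 19.2% ± 8.56 under CD40 agonist and in the combination. The share of Ccl6 was 16.2% ± 0.64 and 14.6% ± 2.64 in the first 2 of these groups and 9.91% ± 3.72 and 9.64% ± 4.75 in the last 2. These shares are descriptions with no test.

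**Figure D1:**
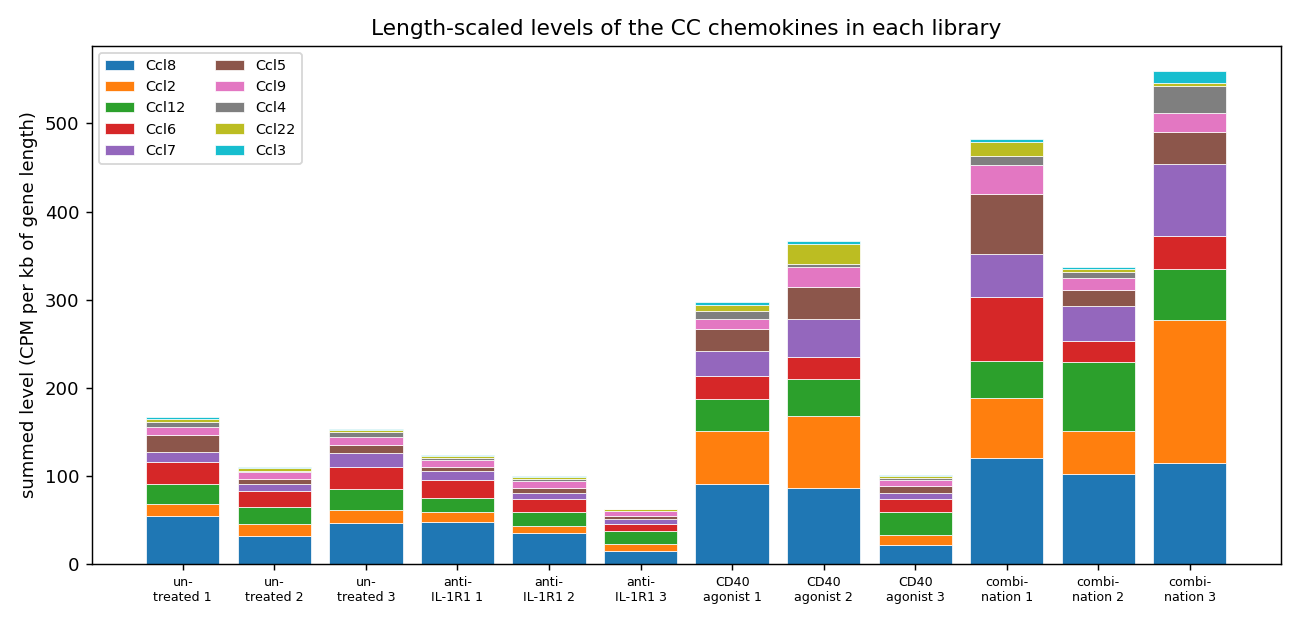
Stacked bars of the 10 chemokines in CPM per kb of gene length (y axis, from 0) for each of the 12 libraries (x axis). The combination libraries reach 337 to 560 CPM per kb, and CD40 agonist replicate 3, at 100.5, is as low as libraries without CD40 agonist.

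When the effect of CD40 agonist was averaged over tumours lacking and receiving anti-IL-1R1, edgeR called 4 of 10 members higher, the CCR2 ligands Ccl2, Ccl7 and Ccl12 among them, against 1.8% of all genes. Leaving out 1 library brought the 4 calls to 0 or 1 for 9 of the 12 libraries. Ccl2 (ENSMUSG00000035385), the main monocyte attractant of this family, stood at 16.4, 15.1 and 16.7 CPM in untreated replicates 1, 2 and 3, at 11.9, 9.20 and 7.92 under anti-IL-1R1, at 68.6, 93.0 and 13.1 under CD40 agonist, and at 76.8, 55.5 and 185 in the combination. All 3 combination libraries lay above all 3 untreated and all 3 anti-IL-1R1 libraries, whereas in the CD40 agonist group 2 libraries were high and replicate 3 lay below every untreated one. Averaged over both backgrounds, Ccl2 rose 6.29-fold under CD40 agonist (log2 fold change 2.65, SE 0.46, adjusted p = 0.0306 by edgeR). It was 10.9-fold higher in the combination than under anti-IL-1R1 (log2 3.45, SE 0.68, adjusted p = 0.0357). The 6.57-fold difference between combination and untreated tumours missed the threshold (log2 2.72, SE 0.65, adjusted p = 0.103), as did the 3.62-fold difference between CD40 agonist and untreated tumours (log2 1.86, SE 0.63, adjusted p = 1.00 and unadjusted p = 0.0155 by edgeR).

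Ccl12 (ENSMUSG00000035352), a mouse CCR2 ligand next to Ccl8, had the smallest SE of the members in every comparison. It stood at 11.7, 10.1 and 13.0 CPM in untreated replicates 1, 2 and 3, at 8.65, 8.46 and 8.39 under anti-IL-1R1, at 19.4, 22.4 and 13.9 under CD40 agonist, and at 22.8, 41.8 and 31.3 in the combination. Among the members only Ccl12 had every library under CD40 agonist, alone or in the combination, above every library without it, and 0.391% of the genes tested were higher in this way. It rose 2.46-fold under CD40 agonist averaged over both backgrounds (log2 1.30, SE 0.17, adjusted p = 0.0142 by edgeR) and was 3.76-fold higher in the combination than under anti-IL-1R1 (log2 1.91, SE 0.25, adjusted p = 0.0149). Against untreated tumours the combination was 2.76-fold higher, just outside the threshold (log2 1.46, SE 0.25, adjusted p = 0.05004 by edgeR).

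Ccl7 (ENSMUSG00000035373), which also binds CCR2, stood at 8.83, 6.39 and 12.8 CPM in untreated tumours, 8.08, 5.22 and 5.33 under anti-IL-1R1, 23.1, 35.0 and 6.07 under CD40 agonist, and 38.7, 32.0 and 65.9 in the combination. Its order of libraries was much like that of Ccl2, under CD40 agonist replicate 3 below the untreated ones and the combination above all libraries without CD40 agonist. Ccl7 rose 4.09-fold under CD40 agonist averaged over both backgrounds (log2 2.03, SE 0.38, adjusted p = 0.0306 by edgeR) and was 7.33-fold higher in the combination than under anti-IL-1R1 (log2 2.87, SE 0.55, adjusted p = 0.0274).

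Ccl8 (ENSMUSG00000009185), in mice a ligand of CCR8, stood at 27.5, 16.4 and 23.7 CPM in untreated tumours, 24.5, 17.6 and 7.64 under anti-IL-1R1, 46.3, 43.8 and 10.9 under CD40 agonist, and 61.5, 52.1 and 58.3 in the combination. The combination libraries were close to each other and above every other library. No difference of Ccl8 passed the test: the combination was 2.55-fold higher than untreated (log2 1.35, SE 0.51, adjusted p = 0.240 by edgeR) and 3.46-fold higher than anti-IL-1R1 tumours (log2 1.79, SE 0.52, adjusted p = 0.111).

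**Figure D2:**
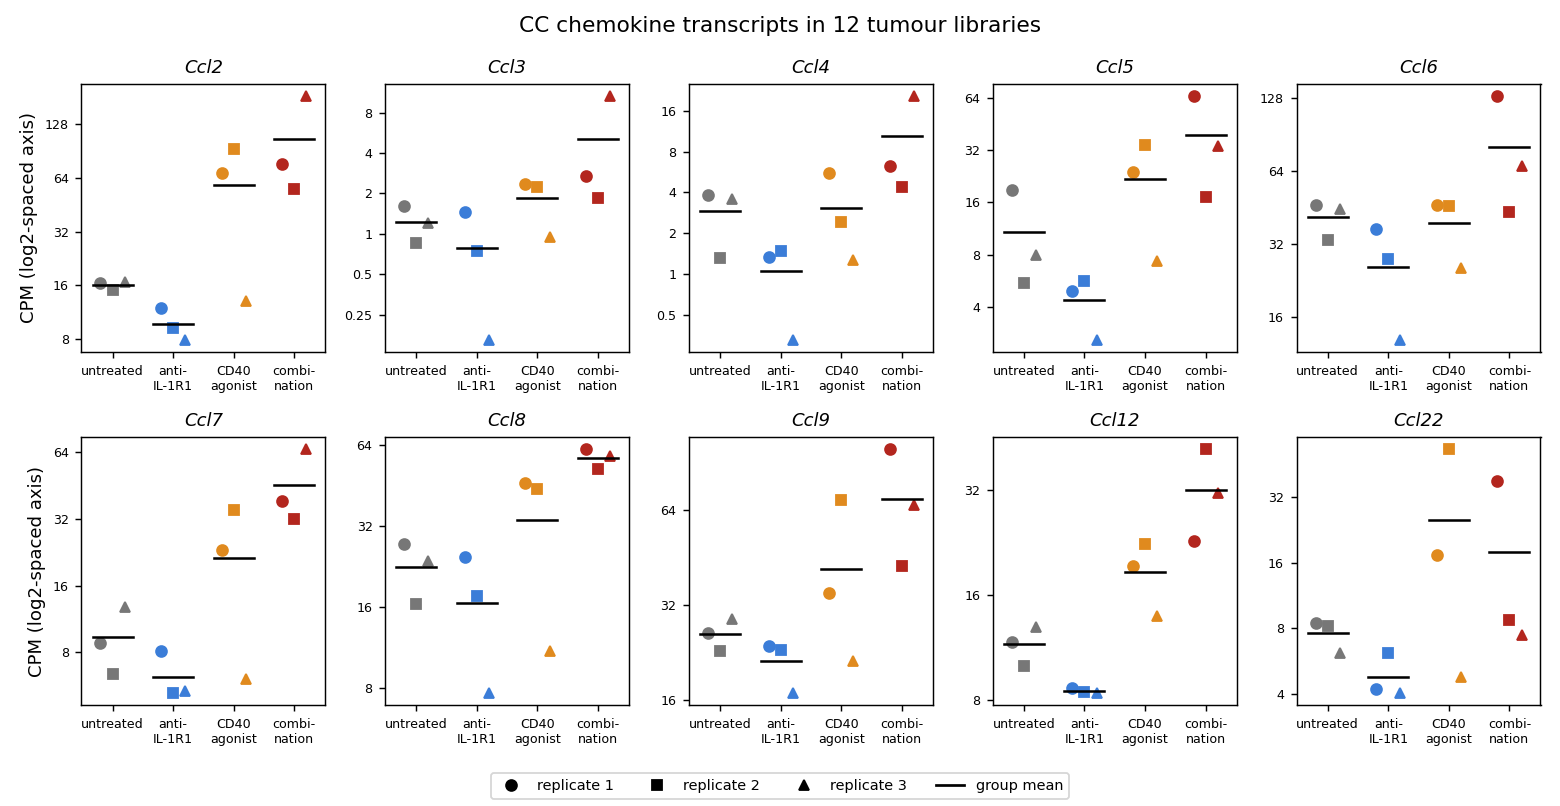
CPM of each of the 10 chemokines (y axis, log2-spaced) in the 4 groups (x axis), with 1 symbol per library by replicate number and a bar at the group mean. The combination mean is the highest for 9 of the 10 members. Only for Ccl8 and Ccl12 does every combination library lie above every CD40 agonist library. CD40 agonist replicate 3 is the lowest of its group in all 10.

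Ccl3, Ccl4 and Ccl5 encode inflammatory chemokines of macrophages and activated lymphocytes. Ccl5 (ENSMUSG00000035042), a product of T and NK cells as well as macrophages, stood at 18.9, 5.51 and 7.98 CPM in untreated tumours, 4.94, 5.60 and 2.59 under anti-IL-1R1, 24.0, 34.4 and 7.38 under CD40 agonist, and 66.0, 17.3 and 33.9 in the combination. Untreated replicate 1 lay above the lowest combination library, so those groups overlapped, while combination and anti-IL-1R1 did not. Ccl5 was 8.94-fold higher in the combination than under anti-IL-1R1 (log2 3.16, SE 0.71, adjusted p = 0.0480 by edgeR), and its 4.25-fold average difference under CD40 agonist missed the threshold (log2 2.09, SE 0.48, adjusted p = 0.0539).

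Ccl4 (ENSMUSG00000018930), known as a macrophage inflammatory protein, stood at 3.85, 1.30 and 3.60 CPM in untreated tumours, 1.33, 1.48 and 0.326 under anti-IL-1R1, 5.53, 2.43 and 1.27 under CD40 agonist, and 6.32, 4.40 and 20.7 in the combination. The high mean of the combination rested on replicate 3, although all 3 of its libraries exceeded the untreated ones. Ccl4 was 10.1-fold higher in the combination than under anti-IL-1R1 (log2 3.33, SE 0.79, adjusted p = 0.0474 by edgeR). Ccl3 (ENSMUSG00000000982), a ligand of CCR1, was the member with the fewest reads, 7 to 498 per library. It ranged from 0.848 to 1.60 CPM in untreated tumours, 0.163 to 1.46 under anti-IL-1R1, 0.941 to 2.36 under CD40 agonist and 1.84 to 10.6 in the combination. No difference of Ccl3 passed the test, the lowest adjusted p being 0.0985, for a 6.41-fold difference between combination and anti-IL-1R1 (log2 2.68, SE 0.79, edgeR).

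The CCR1 ligands Ccl9 and Ccl6, neighbouring mouse genes, are made by macrophages and other myeloid cells. Ccl9 (ENSMUSG00000019122) stood at 26.2, 22.9 and 28.8 CPM in untreated tumours, 23.8, 23.1 and 16.8 under anti-IL-1R1, 34.9, 68.9 and 21.4 under CD40 agonist, and 99.4, 42.5 and 66.3 in the combination. Every combination library exceeded every library without CD40 agonist. Ccl9 rose 2.29-fold under CD40 agonist averaged over both backgrounds (log2 1.20, SE 0.27, adjusted p = 0.0449 by edgeR) and was 3.27-fold higher in the combination than under anti-IL-1R1 (log2 1.71, SE 0.39, adjusted p = 0.0436). Ccl6 (ENSMUSG00000018927) ranged from 33.3 to 46.5 CPM in untreated tumours, 12.9 to 36.9 under anti-IL-1R1, 25.4 to 46.2 under CD40 agonist and 43.2 to 131 in the combination. With CD40 agonist alone Ccl6 lay at the untreated level (log2 -0.09, SE 0.44), and none of its differences passed the test. Its combination mean was raised by replicate 1, at 131 CPM.

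Ccl22 (ENSMUSG00000031779), the CCR4 ligand outside chromosome 11, followed another order of libraries. It stood at 8.45, 8.17 and 6.16 CPM in untreated tumours, 4.21, 6.17 and 4.03 under anti-IL-1R1, 17.3, 53.0 and 4.77 under CD40 agonist, and 37.9, 8.72 and 7.46 in the combination. Ccl22 was the only member with its highest mean in the CD40 agonist group, and combination replicates 2 and 3 lay near the untreated level. No difference of Ccl22 passed the test (log2 1.81, SE 0.58, adjusted p = 0.171 by edgeR for the average effect of CD40 agonist). Its 2 highest libraries, CD40 agonist replicate 2 and combination replicate 1, were also those with skeletal muscle transcripts, whose 5 tested markers summed to 1462 and 2927 CPM there and to at most 40.4 CPM in the other 10 libraries. The part of muscle in these values was not tested. Without those 2 libraries the average effect of CD40 agonist on Ccl22 was 0.64 on the log2 scale (SE 0.31, adjusted p = 0.409 by edgeR). Both had received CD40 agonist and were the highest for Ccl22. Leaving them out was therefore bound to lower the value, which says nothing about muscle. Ccl5, Ccl6, Ccl8 and Ccl9 also had their highest value in combination replicate 1. Ccl2, Ccl3, Ccl4 and Ccl7 had theirs in combination replicate 3, where the muscle markers summed to 1.43 CPM.

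Under anti-IL-1R1 alone the means of all 10 members were below the untreated ones, with no call. The members had negative log2 fold changes against untreated tumours, from -1.49 (SE 0.75, Ccl4) to -0.29 (SE 0.38, Ccl9), with a median of -0.65, where 50.1% of all tested genes were negative and their median was -0.0011. Of the 4 groups, this one had the lowest mean in all 10 members. Libraries of the 2 groups did not overlap for Ccl2 and Ccl12, 2 of 10, where 4.99% of the genes tested were lower without overlap. None of the differences passed the test: edgeR called 0 of 10 members and 0% of genes lower. DESeq2 and limma voom also called 0 members. An unadjusted p under 0.05 by edgeR was reached by 0 members and by 1.56% of all genes.

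With CD40 agonist alone, 9 of 10 members had positive log2 fold changes against untreated tumours, with Ccl6 the exception, and the median was 0.68, where 51.7% of all tested genes were positive with a median of 0.01. The largest were those of Ccl2 (1.86, SE 0.63) and Ccl22 (1.72, SE 0.82). Only Ccl12 had no overlap between the groups, 1 of 10, against 5.14% of genes higher without overlap. By edgeR 0 of 10 members and 0% of genes were called higher, 3 members (Ccl2, Ccl7 and Ccl12) and 2.41% of all genes had an unadjusted p under 0.05, and DESeq2 and limma voom called 0 members. Without CD40 agonist replicate 3, edgeR still called 0 members, and Ccl2 then had a log2 fold change of 2.33 (SE 0.40, adjusted p = 0.125).

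Combination tumours had higher values than CD40 agonist tumours in 9 of 10 members, all but Ccl22, with a median log2 fold change of 0.85 beside 0.0035 over all genes, of which 50.3% were positive. The largest were those of Ccl4 (1.76, SE 0.73) and Ccl3 (1.46, SE 0.75), both with their highest value in combination replicate 3. Ccl3 stood at 2.69, 1.84 and 10.6 CPM in combination replicates 1, 2 and 3. Over the alternative fits the log2 fold change ran from 0.80 to 2.49 for Ccl4 and from 0.30 to 1.89 for Ccl3. Ccl8 and Ccl12 had no overlap, 2 of 10, where 3.54% of the genes tested were higher without overlap. By edgeR 0 of 10 members and 0% of genes were called higher, 3 members (Ccl4, Ccl6 and Ccl12) and 6.64% of all genes had an unadjusted p under 0.05, and DESeq2 and limma voom called 0.

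Combination tumours had higher values than untreated tumours in all 10 members, with a median log2 fold change of 1.65 beside 0.0022 over all genes, of which 50.2% were positive. In 7 of 10 members (Ccl2, Ccl3, Ccl4, Ccl7, Ccl8, Ccl9 and Ccl12) the groups did not overlap, against 10.7% of genes tested. By edgeR 0 of 10 members passed the adjusted test, where 0.0206% of genes were called higher. An unadjusted p under 0.05 was reached by 8 members, all but Ccl6 and Ccl22, and by 15.5% of all genes. DESeq2 called 4 members (Ccl2, Ccl7, Ccl9 and Ccl12) and 4.04% of all genes in either direction, and limma voom called 0 of both. The edgeR count was 4 without CD40 agonist replicate 3, 2 without CD40 agonist replicate 2 or combination replicate 2, and 1 without combination replicate 1, and over all leave-one-out fits of this comparison the genes called ranged from 0 to 550.

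Combination against anti-IL-1R1 had the highest median of the comparisons. All 10 members were higher without overlap of the groups, against 8.8% of genes tested, and edgeR called 6 of 10 (Ccl2, Ccl4, Ccl5, Ccl7, Ccl9 and Ccl12), against 1.89% of genes called higher. The median log2 fold change was 2.30 beside -0.02 over all genes. The size of the difference was kept when a library was left out, with medians of 2.03 to 2.65, but the calls were not. They were 0 members without any 1 of the 3 anti-IL-1R1 libraries, 1 without untreated replicate 1 or combination replicate 3, 2 without untreated replicate 2 or 3, and 3 without CD40 agonist replicate 1 or combination replicate 1. They were 5 without CD40 agonist replicate 2 and 7 without CD40 agonist replicate 3 or combination replicate 2. The genes called in these fits, in either direction, ranged from 0 to 660, with 474 when all libraries were kept, so the background changed as well. DESeq2 called 9 members, all but Ccl22, and 5.04% of all genes. Without both muscle-rich libraries 4 members were called (Ccl2, Ccl7, Ccl9 and Ccl12). The share of all genes called in either direction was then 2.74%, beside 2.44% when all libraries were kept.

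The average effect of CD40 agonist, over tumours lacking and receiving anti-IL-1R1, was positive in all 10 members, from 0.78 (SE 0.31, Ccl6) to 2.65 (SE 0.46, Ccl2), with a median log2 fold change of 1.67 beside -0.01 over all genes. By edgeR 4 of 10 members rose (Ccl2, Ccl7, Ccl9 and Ccl12), against 1.8% of genes called higher. Leaving out 1 library gave 0 calls without untreated replicate 1, untreated replicate 2 or anti-IL-1R1 replicate 1. It gave 1 call, that of Ccl12, without untreated replicate 3, anti-IL-1R1 replicate 2 or 3, CD40 agonist replicate 1 or 2, or combination replicate 3. It gave 3 calls without combination replicate 1, 5 without combination replicate 2 and 7 without CD40 agonist replicate 3. The genes called in these fits, in either direction, ranged from 0 to 765, with 426 when all libraries were kept. Without both muscle-rich libraries 1 member, Ccl12, was called. The share of all genes called in either direction was then 0.494%, beside 2.19% when all libraries were kept.

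The interaction, the log2 fold change of the combination beyond the sum of those of the 2 antibodies alone, passed the test in no member. Its estimate was positive in all 10, where 47.3% of all genes tested were positive, but for Ccl22 the sign turned in 3 of 20 alternatives. The estimates ran from 0.19 (SE 1.13, Ccl22) to 3.25 (SE 1.05, Ccl4). The interaction was not called by edgeR for any of the 10 members or for any other gene, 0% of those tested, nor for any member by DESeq2 or limma voom. An unadjusted p under 0.05 was reached by 5 members and by 4.37% of all genes, lowest among the members for Ccl12 (log2 1.23, SE 0.34, unadjusted p = 0.00313 by edgeR, adjusted p = 1.00). The effect of anti-IL-1R1 averaged over tumours lacking and receiving CD40 agonist ran from -0.57 (SE 0.57, Ccl22) to 0.41 (SE 0.53, Ccl3). For it edgeR called 0 of 10 members and 0% of genes higher, and DESeq2 and limma voom called 0 members. At an unadjusted p under 0.05 by edgeR were 0 members and 4.58% of all genes. These comparisons share libraries and are not independent of one another.

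**Figure D3:**
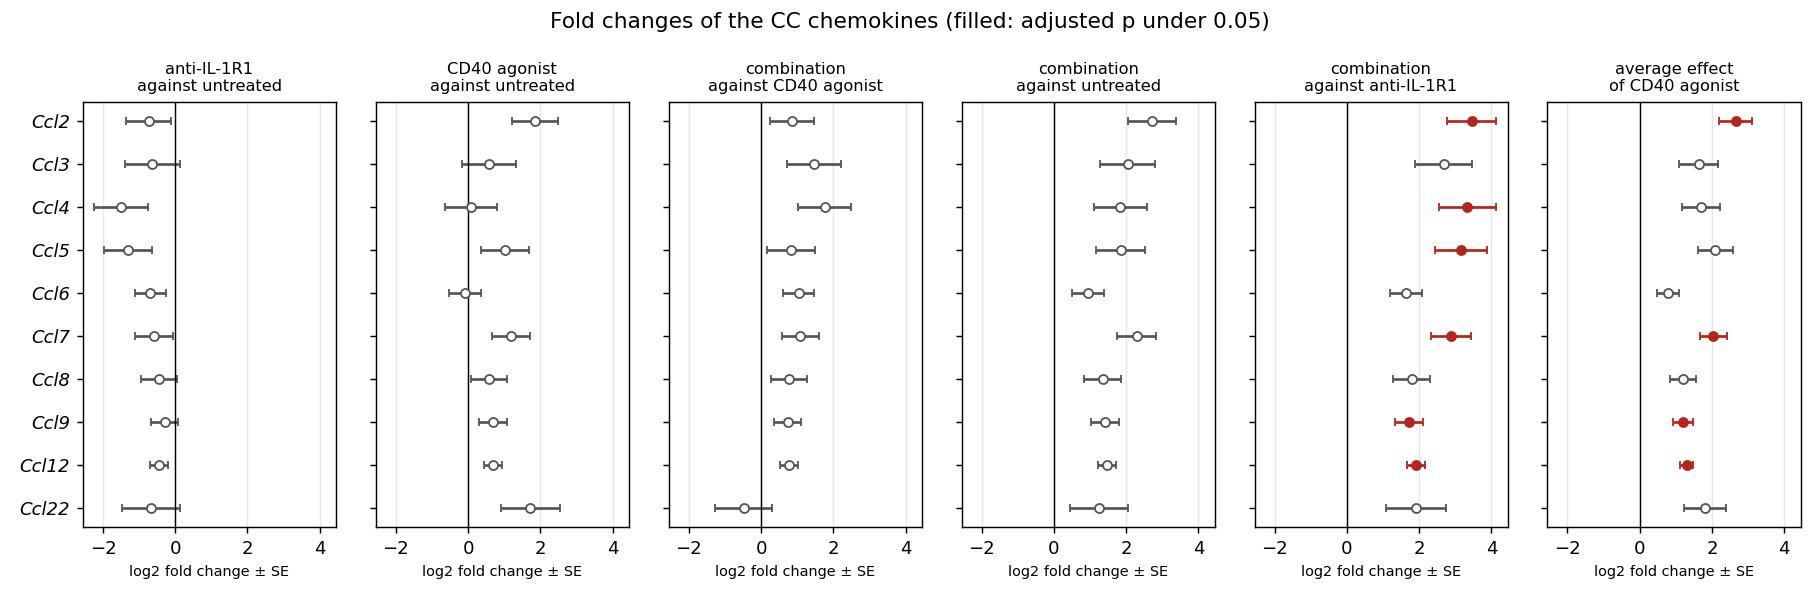
Log2 fold change ± SE of each of the 10 chemokines (rows) in 6 comparisons (panels), from the edgeR fit of all 12 libraries, filled where the adjusted p was under 0.05. Filled points occur in 2 panels, 6 in combination against anti-IL-1R1 and 4 in the average effect of CD40 agonist.

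Pearson's r of log2 CPM between 2 members had a median of 0.83 over the 45 pairs and ran from 0.41 (Ccl4 with Ccl22) to 0.98, and after subtracting group means it ran from -0.17 to 0.94 with a median of 0.63. Among the low values after that step were those of Ccl12, at -0.17 with Ccl6, 0.056 with Ccl5, 0.073 with Ccl22 and 0.080 with Ccl9. These values are descriptions over libraries that share treatment, depth and tissue make-up. CD40 agonist replicate 3 was the lowest of its group in all 10 members and lay below the lowest untreated library in 7. Anti-IL-1R1 replicate 3 was the lowest of all 12 libraries in 9 members. Among other genes averaging 1 CPM or more, those most like the mean profile of the members over the 12 libraries were Gbp6 (r = 0.99), Gbp5 (0.99), Zbp1 (0.99), Cd52 (0.99) and Gbp9 (0.99). Member by member, the most like gene was Cxcl10 for Ccl2 (0.99), Msr1 for Ccl7 (0.98), Tnfsf10 for Ccl8 (0.98), Cybb for Ccl9 (0.98), F10 for Ccl5 (0.96) and Lhpp for Ccl12 (0.96). For Ccl3 it was Nkg7 (0.96), for Ccl4 Themis (0.95), for Ccl6 Napsa (0.95) and for Ccl22 Arl5c (0.95).

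The receptors were measured in the same libraries. Of 14 genes for CC receptors and scavengers, 10 were tested, while Ccr3, Ccr4, Ccr6 and Ccr9 had too few reads. Ccr1 ranged from 19.8 to 30.4 CPM in untreated tumours, 17.9 to 23.0 under anti-IL-1R1, 21.1 to 31.2 under CD40 agonist and 36.5 to 58.4 in the combination. Its only call was in combination against anti-IL-1R1 (log2 1.19, SE 0.23, adjusted p = 0.0253 by edgeR). Ccr2 ranged from 15.4 to 18.7, 12.4 to 15.1, 13.2 to 22.9 and 20.7 to 35.7 CPM in the same order, and its highest log2 fold change, 1.00 in combination against anti-IL-1R1, missed the threshold (SE 0.25, adjusted p = 0.0509 by edgeR).

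Ccrl2, a receptor that binds chemerin without signalling, ranged from 1.38 to 3.11 CPM in untreated tumours, 0.881 to 2.04 under anti-IL-1R1, 2.33 to 13.3 under CD40 agonist and 5.09 to 12.3 in the combination. It rose under CD40 agonist averaged over both backgrounds (log2 2.19, SE 0.42, adjusted p = 0.0279 by edgeR). Ackr2, a scavenger that degrades inflammatory CC chemokines, ranged from 0.633 to 2.81, 1.30 to 2.59, 0.847 to 1.28 and 2.05 to 5.11 CPM in the same order. Ccr7, the lymph node homing receptor, ranged from 6.70 to 7.21, 1.28 to 4.73, 3.95 to 11.6 and 2.24 to 7.65 CPM. Neither Ackr2 nor Ccr7 passed the test in any comparison. In the average effect of CD40 agonist all 10 tested receptors and scavengers had positive log2 fold changes, 2 were called, Ccrl2 among them, and the median was 0.62. Of all genes 48.6% were positive and 1.8% were called higher.

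Of 11 other CC chemokines, 9 were tested. Ccl11, the gene between Ccl7 and Ccl12, stood at 6.23, 5.34 and 7.56 CPM in untreated tumours, 3.27, 2.71 and 3.24 under anti-IL-1R1, 6.48, 17.9 and 3.01 under CD40 agonist, and 17.7, 17.4 and 13.1 in the combination. It rose under CD40 agonist averaged over both backgrounds (log2 1.45, SE 0.33, adjusted p = 0.0417 by edgeR). Ccl17, the other CCR4 ligand beside Ccl22, ranged from 3.02 to 4.27 CPM in untreated tumours, 2.09 to 5.81 under anti-IL-1R1, 1.80 to 2.25 under CD40 agonist and 0.684 to 2.81 in the combination. Its average difference under CD40 agonist was negative and not called (log2 -0.995, SE 0.37, adjusted p = 0.226 by edgeR). Ccl21a, a lymphoid tissue chemokine, spread from 0.77 to 72.5 CPM over the 12 libraries with no call, and Ccl25 (5.30 to 8.11 CPM) and Ccl27a (1.98 to 7.26 CPM) had none. In the average effect of CD40 agonist 6 of the 9 were positive and 3 negative, 1 was called, and the median log2 fold change was 0.08. Over all genes 48.6% were positive and 1.8% were called higher. In combination against untreated 7 of the 9 were positive, with a median of 0.22, where 50.2% of all genes were positive. Whether this list differed from the 10 members was not tested.

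**Figure D4:**
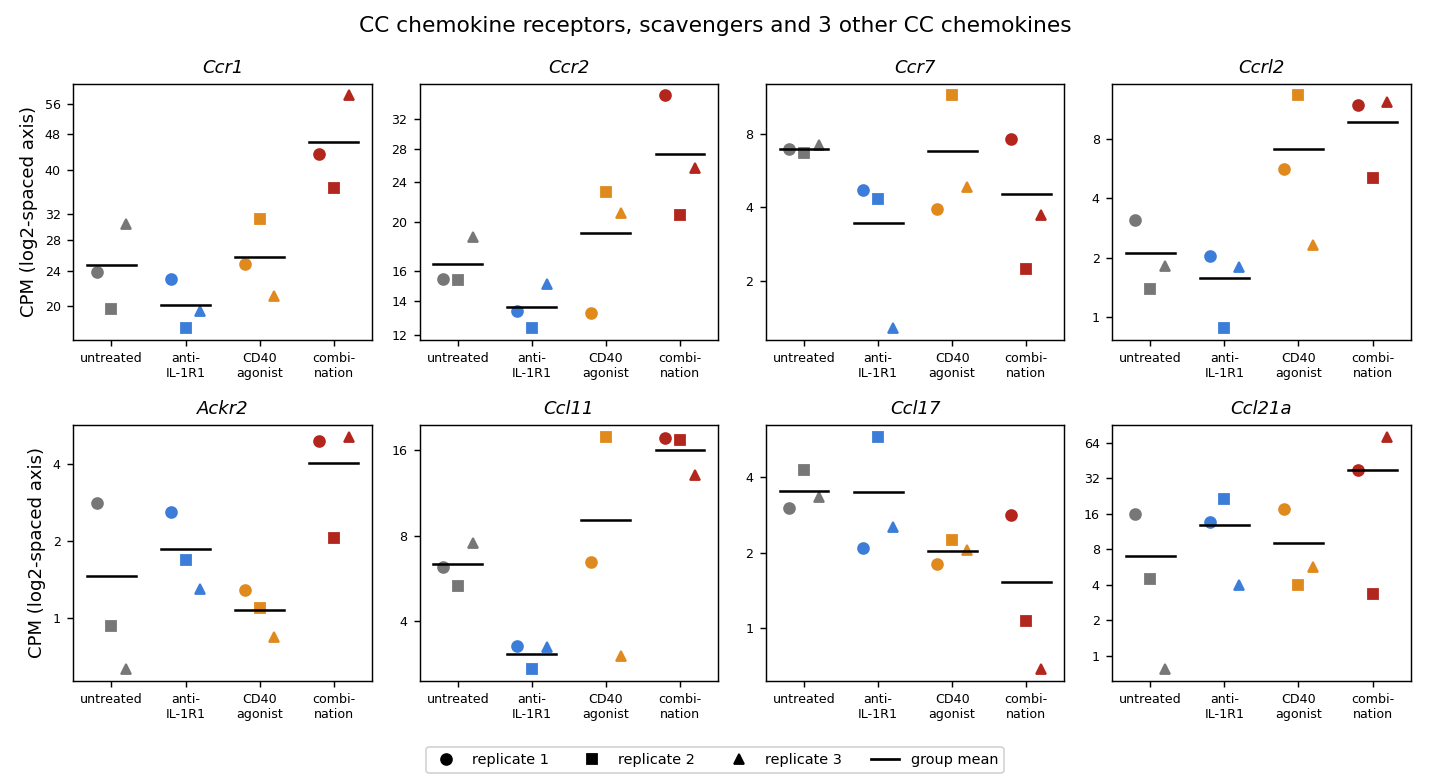
CPM (y axis, log2-spaced) of 5 receptors and scavengers and of Ccl11, Ccl17 and Ccl21a in the 4 groups (x axis), with 1 symbol per library by replicate number and a bar at the group mean. The combination mean is the highest for Ccr1, Ccr2, Ccrl2, Ackr2, Ccl11 and Ccl21a, and Ccl17 has its lowest mean there.

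Genes of the pathways around the chemokines were counted in the average effect of CD40 agonist, in which the median over all genes was -0.01 and 1.8% of genes were called higher. Of all genes 48.6% were positive there. Of 12 genes that carry chemokine receptor signals inside leukocytes, 11 were positive and 2 were called, among them the kinase Fgr (log2 1.21, SE 0.26, adjusted p = 0.0355 by edgeR), and the median was 0.88. Rac2, a leukocyte GTPase, was not called (1.08, SE 0.26, adjusted p = 0.0531 by edgeR). Of 12 NF-kB target genes all were positive and 6 were called, led by Sod2 (1.02, SE 0.18), Tnfaip3 (1.10, SE 0.20) and Birc3 (1.18, SE 0.23), and the median was 1.14. Of 12 interferon target genes all were positive and 9 were called, among them Mx1 (2.49, SE 0.46) and Cxcl10 (3.53, SE 0.60), and the median was 2.46. With anti-IL-1R1 alone all 12 interferon target genes had negative log2 fold changes, with a median of -1.18. There edgeR called 0, and 2 had an unadjusted p under 0.05, against 1.56% of all genes. The other tools were not used on the lists.

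Markers of several cell types differed alongside the chemokines. Of 16 monocyte and macrophage markers, 13 were positive in the average effect of CD40 agonist and 3 were called: Itgam (log2 1.30, SE 0.24), Chil3 (4.38, SE 0.87) and Fcgr1 (0.94, SE 0.21). Of all genes 48.6% were positive there and 1.8% were called higher. The median of the 16 was 0.57 and the lowest was -0.22. In the combination against untreated tumours 14 of the 16 were positive and 0 were called. Adgre1 (-0.58, SE 0.49) and Cd14 (-0.31, SE 0.17) were the negative ones, and Csf1r was at 0.20 (SE 0.32). The 16 markers summed to 1644 to 1913 CPM in untreated tumours, 1388 to 1837 under anti-IL-1R1, 1723 to 3319 under CD40 agonist and 2444 to 3503 in the combination, and none was at 0 in a whole group. The 12 T and NK cell markers summed to 23.8 to 43.8, 12.5 to 26.6, 18.1 to 93.2 and 39.2 to 198 CPM in the same order. In the average effect of CD40 agonist all 12 were positive and 0 were called by edgeR. An unadjusted p under 0.05 by edgeR was reached by 7 of them and by 14.3% of all genes. The 8 tumour epithelial markers, which include keratins, summed to 3751 to 5238, 3812 to 4846, 3688 to 5204 and 2325 to 3212 CPM. With CD40 agonist alone the lowest of their log2 fold changes against untreated tumours was -0.95, with 0 called. In the combination Epcam was at -6.31 against untreated tumours (SE 0.88, adjusted p = 0.0395 by edgeR). In the average effect of CD40 agonist all 8 were negative and 1, Epcam, fell (log2 -4.05, SE 0.55, adjusted p = 0.0179 by edgeR). Of all genes 51.4% were negative there and 0.396% were called lower. Of the neutrophil markers 6 of 7 were positive and S100a9, a calprotectin subunit, rose (log2 2.17, SE 0.46, adjusted p = 0.0337 by edgeR), with sums of 6.81 to 11.0, 7.01 to 9.94, 8.11 to 27.5 and 11.0 to 26.0 CPM in the same order. In the combination against untreated tumours 6 of the 7 were positive and 0 called, and Ly6g was at -0.05 (SE 1.99). With anti-IL-1R1 alone S100a9 was at 1.18 (SE 0.65, not called). Of the 5 regulatory T cell markers 4 were positive in the average effect of CD40 agonist, the lowest was at -0.15 and Il2ra rose (log2 2.30). Against untreated tumours Foxp3 was at -0.05 in the combination (SE 1.07), where 4 of the 5 were positive and 0 were called. With anti-IL-1R1 alone it was at -1.16 (SE 1.10, not called). In the average effect of CD40 agonist 2 of 8 fibroblast markers were positive and Pdgfra rose (log2 0.64). No marker of dendritic cells (8 tested, 4 positive), B cells (4 tested) or endothelium (5 tested) was called by edgeR. Of these markers 4, 0 and 1 had an unadjusted p under 0.05, against 14.3% of all genes. In the combination 2 of the 8 dendritic cell markers had 0 reads in all libraries. Against untreated tumours 5 of the 8 were positive there, and 0 were called. Xcr1 (log2 -7.54, SE 2.46) and Cd209a (-7.84, SE 2.36) were lower without overlap, as were 11.7% of all genes. The part of cell make-up in the chemokine values was not tested, and in bulk samples more cells of a type and more RNA per cell cannot be told apart.

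**Figure D5:**
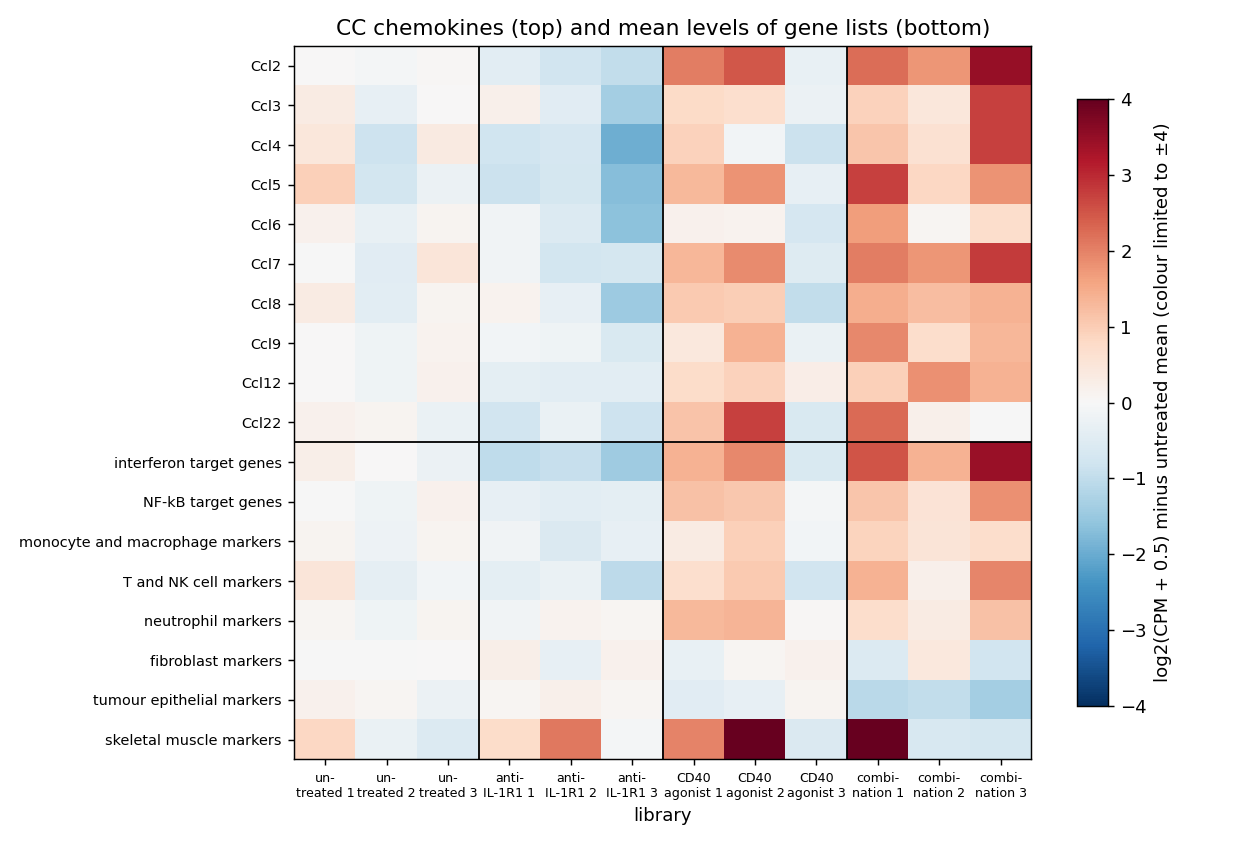
Log2(CPM + 0.5) minus the untreated mean for the 10 chemokines (upper rows) and for the mean level of 8 gene lists (lower rows) in the 12 libraries (columns), with colour limited to ±4. CD40 agonist replicate 3 lies below the lowest untreated library in 7 of the 10 chemokines, and skeletal muscle transcripts are high in CD40 agonist replicate 2 and combination replicate 1.

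In the authors' deposited tables, which cover 3 of the comparisons, none of the 10 members had an adjusted p under 0.05. The authors' deposited table of anti-IL-1R1 against untreated gave negative log2 fold changes for all 10, with the lowest adjusted p, 0.310, for Ccl5. The authors' deposited table of CD40 agonist against untreated gave 9 positive and 1 negative, with the lowest adjusted p, 0.330, for Ccl12. The authors' deposited table of combination against CD40 agonist gave 9 positive and 1 negative, with the lowest adjusted p, 0.533, for Ccl4.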

How the data were processed

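Total RNA of tumours was sequenced in 12 libraries. The authors deposited 3 tables of 6 libraries each. Per the file headers, they give raw counts per gene and library, gene length, mm39 coordinates, and the authors' own log2 fold change, p-value and adjusted p. The submitters' processing notes name mm39 and DESeq2, without versions, and the aligner, counter and strand setting were not given in the sources used here. The 42 deposited columns of normalized values and FPKM were not used. The authors' log2 fold changes and p-values are quoted only where named.

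Groups came from the sample titles. Counts were joined on the 25619 genes in all 3 tables, of 31106 in any, with 0 mismatches for libraries present in 2 tables. All 12 libraries were fitted together in edgeR 4.0.16 (R 4.3.3) with TMM factors, the filterByExpr filter and the robust quasi-likelihood test. P-values were adjusted by Benjamini-Hochberg over the 19436 genes tested, with a threshold of 0.05. Every adjusted p of a single gene is from edgeR unless another source is named. SE is the log2 fold change divided by the root of the F statistic. Alternatives, run for the members, were other normalization factors, DESeq2 1.42.0, limma 3.58.1 voom, no filter, fewer groups or genes, a replicate block and left-out libraries. No pair of libraries agreed within counting noise (lowest median chi-square per gene 5.19, genes with at least 20 reads). The scripts were tested on simulated data.

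The members, the gene lists and the tests were chosen with earlier results of these data known. Named genes were all members, the receptors and other CC chemokines with a mean of at least 1 CPM, up to 3 genes of lowest p in the average effect of CD40 agonist from lists described by name, and the genes of highest r with the members (log2 CPM, prior count 2). Some genes that this rule would name are not reported here.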

Additional observations from a re-analysis of the deposited data

How the results depend on the processing

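Direction held for all 10 members in every alternative of anti-IL-1R1 against untreated, combination against untreated, combination against anti-IL-1R1 and the average effect of CD40 agonist. The number of members called did not. For combination against anti-IL-1R1 (6 called) it was 9 with DESeq2, 2 with limma voom, 2 without a filter and 0 with the replicate block. The share of all genes called there, in either direction, was 2.44% in the main fit. In these alternatives it was 5.04%, 1.18%, 1.42% and 0%, in that order. For the average effect of CD40 agonist (4 called) it was 9 with DESeq2, 1 with limma voom and 0 with the replicate block. It was 1 without CD40 agonist 2 and combination 1. The share of all genes called was 2.19% in the main fit and 4.4%, 0.53%, 0% and 0.494% in these alternatives, in that order. For combination against untreated (0 called) it was 1 with DESeq2 size factors in edgeR, 4 with DESeq2 and 1 without a filter. It was 4 with only the groups compared and 1 without CD40 agonist 2 and combination 1. The share of all genes called was 0.0617% in the main fit. In these alternatives it was 0.0823%, 4.04%, 0.281%, 0.872% and 0.755%, in that order. Leaving out 1 library at a time gave 0 to 7, 0 to 7 and 0 to 4 calls in these 3 comparisons, and 0 in each of the others. The genes called in the fits of these 3 comparisons ranged from 0 to 660, 0 to 765 and 0 to 550. The cause was not tested. Of the 18 same-numbered pairs, 6 had a correlation of deviations over 0.1 (from -0.53 to 0.31). These values cannot decide whether the replicate numbers pair the samples, as differently numbered pairs were not set beside them. The replicate block called 0 genes in all 8 comparisons.

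Some small, uncalled log2 fold changes changed sign. With limma voom Ccl4 was at -0.048 for CD40 agonist against untreated and -0.022 for the average effect of anti-IL-1R1, and without both muscle-rich libraries Ccl6 was at -0.044 for the latter. Leaving out 1 library at a time, CD40 agonist against untreated ran from -0.66 to 0.45 for Ccl4 and from -0.25 to 0.15 for Ccl6, and combination against CD40 agonist from -1.63 to 0.70 for Ccl22. The average effect of anti-IL-1R1 ran from -0.28 to 0.32 for Ccl2, -0.17 to 0.65 for Ccl3, -0.35 to 0.50 for Ccl4, -0.55 to 0.10 for Ccl5, -0.097 to 0.33 for Ccl6, -0.050 to 0.33 for Ccl8 and -1.15 to 0.018 for Ccl22. The interaction of Ccl22 ran from -0.97 to 1.37. With 3 libraries a group and a common coefficient of biological variation of 0.446, small differences could not be detected. Ccl3 had as few as 7 reads in a library.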
